A study of Mus musculus with 12 samples.

Results

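CAP-treated wounds were compared between day 6 and day 3 after wounding, to follow the course of healing under capsaicin (CAP). The 3 libraries of wounds treated with 10 µM CAP and taken at day 6 were set against the 3 taken at day 3, so 6 of the 12 libraries of the series entered the comparison. Members were all genes whose mean reached 0.3 TPM at day 3 or at day 6, which left 19529 of 55487 listed genes. TPM is a gene's share of all transcripts of a library after correction for its length, so levels can be compared between genes.

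The wounds were full-thickness punch-biopsy wounds on the back of male C57BL/6JNarl mice that were 6 weeks old, with a pair of wounds on each mouse. The CAP group received 200 µL of 10 µM CAP once a day on the wound, in a gel of 25% Pluronic F127 in saline, and the sham group received the same volume of the gel alone. All 4 groups (CAP and sham, day 3 and day 6) therefore share the gel, and no group was left without it. The mouse behind each library is not named in the labels, so a pair of libraries may share a mouse, n is a number of libraries and the p values measure the spread between libraries only.

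Skin repair passes through overlapping phases. Clotting and inflammation come first, with platelets, neutrophils and monocytes drawn in by chemokines, followed by a phase in which keratinocytes migrate over the wound and fibroblasts and vessels build granulation tissue. Keratinocytes at the wound edge express the wound keratins (Krt6a, Krt6b, Krt16 and Krt17) while they migrate, and once the wound is covered they stratify again, with Krt1 and Krt10 in the suprabasal layers and filaggrin, loricrin and the late cornified envelope proteins in the outermost ones. CAP is the pungent compound of chili peppers and opens the ion channel TRPV1 of sensory neurons.

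The tissue label was borne out by its defining genes, since all 6 libraries held keratinocyte, fibroblast and macrophage transcripts in abundance. Each library held between 18533 and 19325 genes at 0.3 TPM or more over the 12 libraries. The second CAP library of day 6 (replicate 2) stood apart. Its 10 most abundant genes held 14.1% of all TPM against 8.27% to 11.3% in the other 11 libraries. It was also the library with the fewest transcripts of neutrophils (373 TPM summed over the neutrophil list, against 2791 and 1473 in the other two) and of endothelial cells (206 TPM summed, against 596 and 508) and the most of suprabasal keratinocytes (84567 TPM summed, against 44986 and 36988). Counts of the main gene groups that change without this library are therefore also given without it. At day 3, replicate 1 stood highest for muscle regeneration genes. The column headers of the tables carry 1 number for all day 3 libraries and another for all day 6 libraries. If these numbers mark a batch, batch and day cannot be told apart.

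At a Benjamini-Hochberg adjusted p under 0.05 and 2-fold or more (limma), 1 gene was higher at day 6, Mup18, and 1 was lower, Ppbp, each 0.00512% of the genes tested. Because so few passed, counts are also given at the threshold of the study, an unadjusted p under 0.05 and at least 2-fold, where 345 genes were higher (1.77%) and 397 were lower (2.03%). Each count of list members under CAP below is to be read beside these shares. In the rest of the text "rose", "fell", "higher" and "lower" are used of genes past this 2-fold threshold, which carries no correction for the number of genes, and adjusted p values are given for the leading genes. Without the second day 6 library, 355 genes were higher and 246 lower. Without the third day 6 library, 471 were higher and 708 lower. The 3 libraries of day 6 lay entirely above those of day 3 for 8.38% of the genes tested and entirely below them for 9.84%. The genes named for the smallest p or largest difference between the days were taken only from these. Full separation of their days was thus fixed by that choice. The median difference over all genes was -0.05 on the log2(TPM + 0.1) scale, the scale of all differences below.

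**Figure D1:**
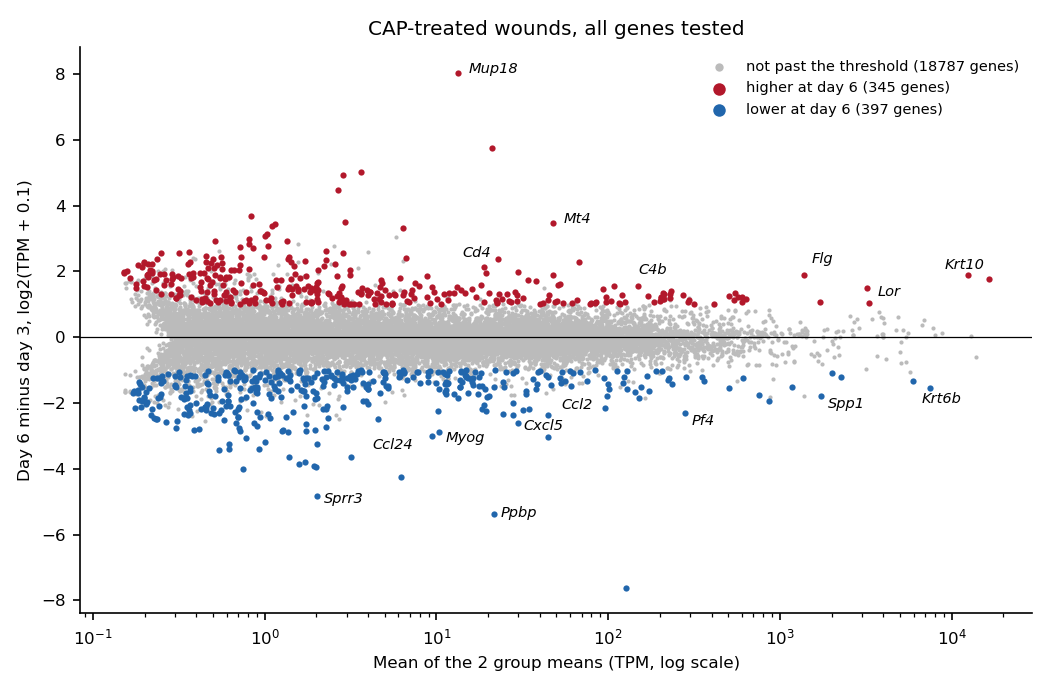
Each point is 1 of the 19529 genes tested, with the mean of its levels at day 3 and day 6 (TPM, log scale) on the horizontal axis and the day 6 minus day 3 difference on the vertical axis, in red for the 345 genes higher and in blue for the 397 genes lower at the 2-fold threshold. Krt10, Krt1, Lor and Flg are the abundant genes on the upper side, and Krt6b, Spp1 and Pf4 lie on the lower side. Mup18 was at 0 in all 3 libraries of day 3, so its height depends on the 0.1 TPM added.

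The most abundant nuclear transcripts changed their order between the days. At day 3 the 5 highest were Krt14 (the basal keratin), Krt6b, Eef1a1 (a translation factor), Krt6a and Ftl1 (the ferritin light chain), and at day 6 they were Krt10, Krt1, Krt14, Eef1a1 and Apoe (a lipid carrier of macrophages). Krt14 itself did not pass the threshold. It was at 19783, 20003 and 10069 TPM at day 3 and at 15762, 10563 and 6740 TPM at day 6, so that the ranges overlapped. Eef1a1 was nearly level, at 8245 to 8484 TPM against 8815 to 9536 TPM. Ftl1 lay at 4357 to 11670 TPM at day 3 and 2421 to 5909 TPM at day 6, and Apoe at 5546 to 8475 and 6460 to 13270 TPM, with overlapping ranges for both.

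Ppbp, Pf4 and Cxcl5, chemokines of platelets and of neutrophil attraction, fell. Ppbp, the gene of pro-platelet basic protein (CXCL7), was at 47.6, 54.0 and 25.6 TPM at day 3 and at 0.751, 1.14 and 0.794 TPM at day 6. Every day 6 library lay far below every day 3 library. On the log2 scale it fell by 5.37 (SE 0.31, adjusted p = 0.0073), a 41.3-fold lower level. Left-out libraries and other settings gave adjusted p values from 0.000723 to 0.0618, and the adjusted call was lost without day 3 replicate 1 and without day 6 replicate 2, though the difference stayed between -5.70 and -5.16 when any 1 library was left out. Platelets are a main source of this transcript, and fewer cells of a type and less RNA per cell cannot be told apart in bulk RNA. The gene lies on chromosome 5 from 90768518 to 90770063 (plus strand, GRCm38). The bases around its start, from chr5:90768268-90768567 on the plus strand, are shown because this is the one gene that fell at the adjusted threshold, with a match to the AP-1 letters TGANTCA and matches to the TATA letters TATAAA in capitals (RefSeq, GRCm38.p6).
Ppbp: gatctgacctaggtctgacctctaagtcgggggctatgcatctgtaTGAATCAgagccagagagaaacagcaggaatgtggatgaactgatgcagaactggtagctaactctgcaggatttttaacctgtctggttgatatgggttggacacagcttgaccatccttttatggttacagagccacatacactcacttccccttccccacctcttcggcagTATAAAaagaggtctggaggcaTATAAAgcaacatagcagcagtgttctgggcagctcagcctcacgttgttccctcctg

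Of 7 tested platelet genes 2 fell, Ppbp and its neighbor Pf4, and 1 of very low level, Gp1bb, rose (not without the second day 6 library), and Cxcl5 on the other side of Ppbp fell too. Pf4, platelet factor 4, was at 439, 438 and 510 TPM at day 3 and at 83.1, 72.9 and 131 TPM at day 6, and fell by 2.32 (SE 0.22, adjusted p = 0.0564). Cxcl5, a neutrophil attractant of epithelial and other cells, was at 38.8, 61.0 and 41.4 TPM at day 3 and at 10.2, 7.95 and 8.52 TPM at day 6, and fell by 2.37 (SE 0.20, adjusted p = 0.053). For neither gene did the days overlap. Along chromosome 5 the order is Cxcl5, Ppbp, Pf4, Cxcl3, Cxcl1 and Cxcl2, and the last 3 of these, which also attract neutrophils, did not pass the threshold. Their differences were -1.21 for Cxcl3, -0.43 for Cxcl1 and -0.19 for Cxcl2, and Cxcl2 ranged from 15.3 to 229 TPM within day 6 alone.

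Over the chemokine list, 5 of 23 tested members fell and 1 rose, with a median of -0.19 (0.04 without the second day 6 library) beside -0.05 for all genes. The 5 were Cxcl5, Ccl2, Ccl24, Ccl9 and Ccl6, and without the second day 6 library 6 fell and 1 rose. Ccl2, the main monocyte attractant, was at 61.6, 72.7 and 88.4 TPM at day 3 and at 21.3, 11.8 and 11.2 TPM at day 6, and fell by 2.37 (SE 0.27, adjusted p = 0.0925). Ccl24, an eosinophil attractant made by macrophages, was at 10.2, 8.94 and 32.2 TPM at day 3 and at 1.27, 2.34 and 1.60 TPM at day 6. Its difference was -3.01, and the days did not overlap for either gene. Ccl6 and Ccl9, made by myeloid cells, were the most abundant of those that fell, with Ccl6 going from 1003, 1842 and 2349 TPM to 642, 357 and 822 TPM. Ccl9 went from 157, 206 and 358 TPM to 72.3, 43.4 and 76.8 TPM. Ccl8, another monocyte attractant, was the member that rose, from 321, 133 and 138 TPM to 499, 301 and 369 TPM, with an overlap between the days. Ccr2, the receptor of Ccl2, did not pass, at a difference of -0.33 (unadjusted p = 0.462).

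The course of the sham group was set beside that of the CAP group, with which it shares no library. Between day 3 and day 6, 6 of 24 chemokines rose (2.92% of all genes there) and 1 fell (2.15%), and the difference between the courses passed the 2-fold threshold for 1 chemokine in the more positive direction under CAP and 7 in the more negative one. Over all 20267 genes tested for a difference between the courses, 0 passed at an adjusted p under 0.05 in limma, 2292 had an unadjusted p under 0.05, and at the 2-fold threshold 441 were more positive (2.18%) and 553 more negative (2.73%) under CAP. No other tool was run on them. Ppbp differed by -3.02 between the days in the sham group and by -5.37 under CAP, a difference between courses of -2.34 (unadjusted p = 0.00156, adjusted p = 0.428). For Ccl2 the course difference was -1.64 (unadjusted p = 0.000908), for Pf4 -1.35 (unadjusted p = 0.00204), for Cxcl5 -1.79 (unadjusted p = 0.0333) and for Cxcl3 -2.67 (unadjusted p = 0.0167). None of these held after adjustment over all genes. Mean levels at day 3 were 42.4 TPM under CAP and 19.7 TPM in sham for Ppbp, and 462 and 323 TPM for Pf4. They were 77.7 and 39.3 TPM for Cxcl3, 74.2 and 67.9 TPM for Ccl2, and 47.1 and 61.8 TPM for Cxcl5. The course differences thus include differences already present at day 3. Within the sham group the differences were -1.90 for Ccl24, -0.97 for Pf4, -0.81 for Ccl9 and -0.73 for Ccl2. They were -0.58 for Cxcl5, -0.06 for Ccl6 and 1.46 for Cxcl3. For Ccl24 the course difference was -1.11 (unadjusted p = 0.164).

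Among myeloid cell markers, 4 of 15 tested neutrophil genes and 3 of 19 tested monocyte and macrophage genes fell (2.03% over all genes), with medians of -0.88 and -0.20. These counts rested in part on the second day 6 library, without which 1 neutrophil gene fell and 2 rose (median -0.11) and 1 macrophage gene fell and 1 rose (median 0.14). The neutrophil members that fell were Retnlg, Mmp8, S100a8 and Clec4d. Of the 15 tested, 12 had negative and 3 had positive differences, over a range from -2.24 to 1.69, and 0 rose with all libraries. Retnlg, a resistin-like protein of neutrophils, was at 20.3, 55.7 and 20.2 TPM at day 3 and at 3.33, 5.26 and 11.8 TPM at day 6, and its difference was -2.24 with all libraries and -2.16 without the second. Mmp8, the neutrophil collagenase, was at 32.0, 53.6 and 55 TPM and then at 7.26, 3.11 and 41.1 TPM. Its difference was -2.20 with all libraries and -1.39 (unadjusted p = 0.104) without the second. S100a8, a calcium-binding alarmin of neutrophils, overlapped between the days, at 684 to 1820 TPM and 97.9 to 962 TPM. Its partner S100a9 differed by -1.80 and did not pass.

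The macrophage genes that fell were Itgam, Msr1 and Fcgr1. Itgam, the CD11b integrin chain of monocytes and neutrophils, was at 176, 230 and 359 TPM at day 3 and at 75.7, 41.8 and 151 TPM at day 6. All 3 day 6 libraries were below the day 3 libraries, and the difference was -1.64 with all libraries and -1.19 without the second. Msr1, a scavenger receptor, differed by -1.29 and Fcgr1, an Fc receptor, by -1.03, and without the second library both came to less than 2-fold, at -0.92 and -0.64. Cx3cr1, the fractalkine receptor, rose by 1.04 from a low level of 0.673 to 2.22 TPM. Of the general macrophage genes, Adgre1 differed by -0.36, Csf1r by 0.28 and Cd68 by -0.83, none past the threshold. C1qa, a complement gene of resident macrophages, was at 436, 308 and 319 TPM at day 3 and at 753, 443 and 726 TPM at day 6, a difference of 0.83 (unadjusted p = 0.0121) that was under 2-fold. Without the second day 6 library C1qa passed, at 1.08, and Cx3cr1 did not (unadjusted p = 0.0773), so the 1 macrophage gene that rose in that setting was C1qa.

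Genes of alternatively activated and lipid-handling macrophages were lower in 3 of 15 cases, with a median of -0.54. Spp1 (osteopontin) was at 1635, 1491 and 4712 TPM at day 3 and at 514, 316 and 1711 TPM at day 6, so the days overlapped at a difference of -1.79. Chil3, a chitinase-like protein, differed by -3.03 and Cd36, a fatty acid uptake receptor, by -1.51. Without the second day 6 library only Cd36 still passed. Arg1, arginase 1, was at 523, 1390 and 2057 TPM and then at 323, 123 and 847 TPM, a difference of -1.83 that missed the threshold (unadjusted p = 0.0505). In the sham group Arg1 differed by 1.31 between the days, and the difference between its courses was -3.14 (unadjusted p = 0.0063, adjusted p = 0.428). Gpnmb, a glycoprotein of lipid-laden macrophages, differed by -0.73 under CAP and by 2.12 in the sham group, with a course difference of -2.85 (unadjusted p = 0.0119). Mean levels at day 3 were 319 TPM in sham and 1462 TPM under CAP for Gpnmb, and 448 and 1324 TPM for Arg1. At day 6 they were 1428 and 946 TPM for Gpnmb, and 1079 and 431 TPM for Arg1. The groups thus already differed in mean at day 3. In all, 7 of the 15 genes were more negative and 1 more positive under CAP than in the sham group.

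Of 17 tested inflammatory cytokines and mediators, 2 fell and 0 rose, and without the second day 6 library 1 fell (Csf2) and 1 rose (Csf3). The 2 were Il33, an alarmin of keratinocytes and stromal cells, which went from 364, 479 and 315 TPM to 285, 102 and 158 TPM (difference -1.20, and -0.84 without the second day 6 library, which is under 2-fold), and Csf2 (GM-CSF), which went from 0.448 to 1.01 TPM at day 3 to at most 0.21 TPM at day 6. The classical inflammatory cytokines did not pass the threshold. Il6 was at 2.41, 2.64 and 3.37 TPM at day 3 and at 4.27, 1.26 and 2.82 TPM at day 6 (difference -0.15, unadjusted p = 0.731). Tnf was at 4.78, 4.59 and 5.42 TPM and then at 4.32, 2.0 and 12.4 TPM (difference -0.04, unadjusted p = 0.949). For Tnf the day 6 libraries lay on either side of the day 3 libraries, and for Il6 the third day 6 library lay within the day 3 range, with 1 library above and 1 below it. Cxcl10, an interferon-induced chemokine, was at 10.2, 3.90 and 2.08 TPM and then at 4.08, 0.691 and 1.26 TPM (difference -1.44, unadjusted p = 0.10).

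**Figure D2:**
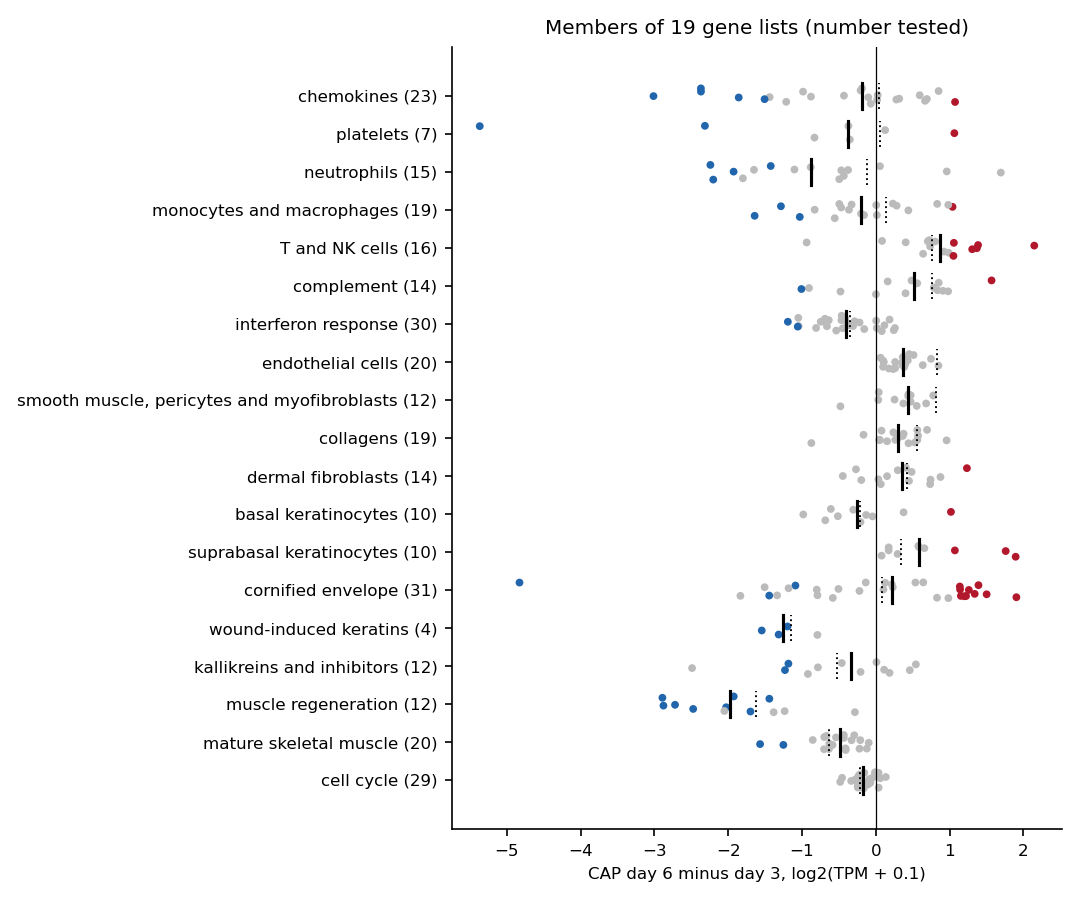
Each row is 1 of 19 gene lists with the number of members tested, and each point is the day 6 minus day 3 difference of 1 member under CAP (log2 scale), in red or blue where it was higher or lower at the 2-fold threshold. The solid bar is the list's median and the dotted bar the median without the second day 6 library. Muscle regeneration (median -1.98) and wound-induced keratins (-1.26) lie to the left, and T and NK cells (0.86) to the right.

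Several genes of the suprabasal and outermost epidermis rose, and some fell. Of 10 tested suprabasal keratinocyte genes, 3 were higher at day 6 (Krt1, Krt10 and Calml3) and 0 lower, with a median of 0.58, and of 31 tested cornified envelope genes 10 were higher and 3 lower, with a median of 0.22. Krt10 was at 8668, 6700 and 5993 TPM at day 3 and at 19544, 40801 and 16989 TPM at day 6. Krt1, its partner in the filament, was at 7510, 5090 and 3151 TPM and then at 16381, 29718 and 12748 TPM. All 3 day 6 libraries exceeded all day 3 libraries for both keratins. Their differences were 1.76 (SE 0.40, adjusted p = 0.271) and 1.90 (SE 0.45, adjusted p = 0.274), and without the second day 6 library, which held the highest levels, 1.37 and 1.55. In sham wounds the differences between the days were 0.11 for Krt10 and -0.04 for Krt1, and the differences between the courses were 1.65 (unadjusted p = 0.0128) and 1.93 (unadjusted p = 0.00968). Calml3, a calmodulin-like protein of keratinocytes, rose by 1.07, and by less than 2-fold (0.89) without the second day 6 library.

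Flg, the gene of filaggrin, was at 759, 534 and 465 TPM at day 3 and at 2229, 2703 and 1646 TPM at day 6. The lowest day 6 library held more than the highest day 3 library by a wide margin. It rose by 1.91, or 3.75-fold (SE 0.25, unadjusted p = 0.000162, adjusted p = 0.144), and by 1.74 without the second day 6 library. In the sham group its difference was -0.52, so that the courses differed by 2.42 (unadjusted p = 0.00319, adjusted p = 0.428). Lor (loricrin) was at 1701, 1616 and 1522 TPM and then at 4215, 7095 and 3180 TPM, and rose by 1.5 (SE 0.30, adjusted p = 0.256). Ivl (involucrin) rose by 1.14 and Hrnr (hornerin), a relative of filaggrin, by 1.39. Asprv1, a protease that processes filaggrin, rose by 1.08, and Casp14, which degrades it, reached 0.98 (unadjusted p = 0.0153), just under 2-fold. Of 13 tested genes of the barrier lipid list 2 rose, Smpd3, a sphingomyelinase, by 1.03, and Asprv1, which the list also holds though it is no lipid gene. Without the second day 6 library 2 suprabasal, 4 cornified envelope and 0 barrier lipid genes were higher, and the range over all left-out libraries was 4 to 12 for the cornified envelope.

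Many of these genes sit together in the epidermal differentiation complex of chromosome 3, and the direction followed the family along it. The stretch from Lor to Rptn was chosen for description after its values were seen, and it holds 51 protein-coding genes that were tested, of which 21 were higher and 4 lower (7 and 3 without the second day 6 library). The late cornified envelope genes of the Lce1 and Lce6 families, 15 in number, were all positive between 0.83 and 1.57, and 14 of them rose. Lce1b, as an example, was at 311, 241 and 309 TPM at day 3 and at 639, 1072 and 466 TPM at day 6, and Lce1f at 371, 251 and 281 TPM and then at 678, 1183 and 530 TPM. The day 6 libraries were above the day 3 libraries for all 15, beside 8.38% of all genes tested. In sham wounds their median difference was -0.01 (range -0.29 to 0.30), and 14 were more positive under CAP in the test of the courses. Without the second day 6 library the median was 0.93 and 3 of the 15 passed 2-fold. The 5 large genes that join an S100 domain to repeats (Crnn, Flg2, Flg, Hrnr and Rptn) were all positive, and 2 rose.

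All 15 tested Sprr genes had negative differences, with a median of -1.26 beside -0.53 in the sham group, and 3 fell (Sprr1a, Sprr2k and Sprr3). Sprr1a, which is induced in stressed and injured epidermis, was at 2593, 3562 and 2063 TPM at day 3 and at 1607, 1158 and 1063 TPM at day 6, and fell by 1.09. Sprr3, expressed mostly in internal stratified epithelia, went from 3.99, 5.93 and 2.07 TPM to 0.132 TPM in 1 library, with the other two listed at 0. Sprr2k was at 22.3, 91.4 and 13.1 TPM and then at 9.46, 2.76 and 7.49 TPM, and without the second day 6 library it missed the threshold (unadjusted p = 0.0646). Of 6 Lce3 genes, which are induced on barrier injury, 1 fell (Lce3a, by 1.44) and the median was -0.23, beside 0.76 in the sham group. Members of the Lce1 and Sprr2 families are near copies of each other, so that the split of reads between them is uncertain, and the counts within a family are not independent.

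**Figure D3:**
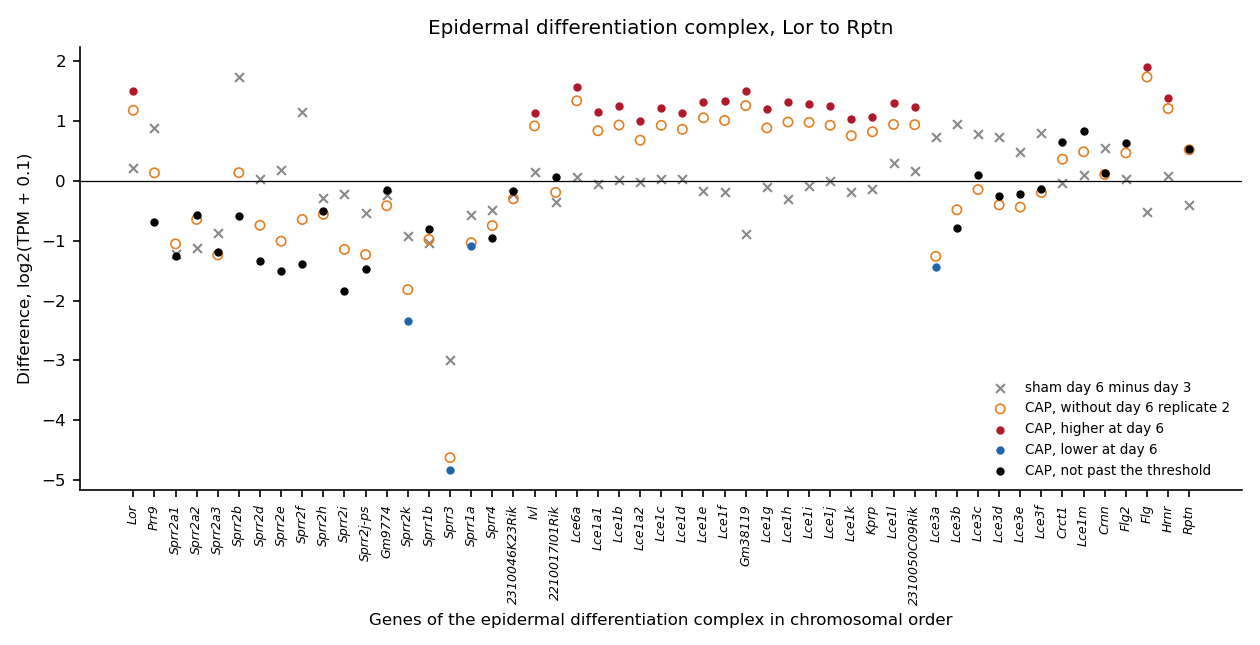
Genes of the epidermal differentiation complex stand in chromosomal order, with the day 6 minus day 3 difference on the vertical axis (log2 scale). Filled points are CAP (red higher, blue lower, black not past the threshold), open circles CAP without the second day 6 library, and crosses the sham group. The Lce1 block lies between 0.83 and 1.57 with the crosses near 0, and the Sprr block lies below 0.

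The bases around the starts of 3 of these genes are shown to set a gene pair that rose beside one that fell in the same complex. Flg is from chr3:93273296-93273595 (plus strand), Lor from chr3:92083093-92083392 (minus strand) and Sprr1a from chr3:92485832-92486131 (minus strand), each read 5′ to 3′ over 250 bases before the start and 50 after it (RefSeq, GRCm38.p6), with AP-1 and TATA matches in capitals.
Flg: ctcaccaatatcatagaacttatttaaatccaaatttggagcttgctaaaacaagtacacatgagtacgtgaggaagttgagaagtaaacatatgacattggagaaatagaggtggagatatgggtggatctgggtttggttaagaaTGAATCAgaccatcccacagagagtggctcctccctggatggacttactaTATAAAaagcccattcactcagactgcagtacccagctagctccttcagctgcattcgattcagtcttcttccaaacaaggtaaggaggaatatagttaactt
Lor: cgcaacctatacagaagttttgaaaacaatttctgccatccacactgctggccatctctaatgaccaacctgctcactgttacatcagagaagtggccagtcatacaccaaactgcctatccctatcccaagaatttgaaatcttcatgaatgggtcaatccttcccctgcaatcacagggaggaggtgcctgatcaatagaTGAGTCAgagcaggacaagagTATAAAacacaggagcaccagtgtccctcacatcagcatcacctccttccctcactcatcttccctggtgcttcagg
Sprr1a: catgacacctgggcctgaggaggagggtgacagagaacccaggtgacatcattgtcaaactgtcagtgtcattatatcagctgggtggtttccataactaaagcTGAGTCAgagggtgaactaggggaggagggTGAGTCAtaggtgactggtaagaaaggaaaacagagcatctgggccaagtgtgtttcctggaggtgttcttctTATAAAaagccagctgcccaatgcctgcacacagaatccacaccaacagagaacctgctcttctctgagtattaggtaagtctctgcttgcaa
All 3 windows, and that of Ppbp, held both letters, whether the gene rose or fell. Over 15926 such windows of 12549 tested genes, searched on both strands, TGANTCA was in 6.20% of all windows, in 10.0% (22 of 219) of those of genes that rose and in 13.2% (37 of 281) of those of genes that fell. TATAAA was in 8.4%, 16% (35 windows) and 20.3% (57 windows). The letters TTTGAA of the cell cycle element CHR were in 13%, 17.4% and 17.1%, and those of the interferon response element in 3.18%, 4.11% and 2.85%. These shares are descriptions of letters, and binding was not measured. Windows of 1 gene with several starts and windows of near-identical gene copies are counted separately.

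Single genes of smallest p among those that rose included several of skin. Lgr6, a receptor of hair follicle and epidermal stem cells, was at 4.41, 4.48 and 5.62 TPM at day 3 and at 13.9, 14.8 and 13.6 TPM at day 6, and rose by 1.53 (SE 0.15, adjusted p = 0.0564). Krt15, a keratin of basal and bulge keratinocytes, went from 185, 231 and 212 TPM to 402, 469 and 399 TPM and was the 1 basal keratinocyte gene of 10 that rose (0.94 and thus under 2-fold without the second day 6 library, and 0 of 10 also without day 3 replicate 1), while Krt5 differed by 0.38 and did not pass. Serpinb12, an epithelial protease inhibitor, rose from 27.1, 25.6 and 16.4 TPM to 136, 124 and 77.6 TPM. For Lgr6, Krt15 and Serpinb12 day 3 and day 6 were fully apart, which was a condition of their choice. Slurp2, a secreted Ly6 family protein of keratinocytes, rose by 2.36, Sult1a1, a sulfotransferase, by 1.34 and Scgb1b27, a secretoglobin, by 2.41, each with adjusted p values of 0.0925 to 0.101. Mt4, the metallothionein of stratified epithelia, went from 6.02, 3.34 and 13.3 TPM to 44.7, 171 and 49.5 TPM, a rise of 3.46. In the sham group Lgr6 differed by 0.06, Krt15 by -0.36 and Mt4 by -0.51, and the course differences were 1.48 (unadjusted p = 0.00161), 1.38 (unadjusted p = 0.0114) and 3.97 (unadjusted p = 0.00223), with adjusted p = 0.428 for each. Spink7, a protease inhibitor of squamous epithelium, was at 0.631 TPM in 1 day 3 library, listed at 0 in the other two, and at 7.92, 10.1 and 3.07 TPM at day 6.

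Of the 4 wound keratins 3 fell between day 3 and day 6, with a median of -1.26. Krt6b was at 11499, 13539 and 6826 TPM at day 3 and at 8165, 2977 and 1756 TPM at day 6, Krt6a at 9262, 10302 and 5135 TPM and then at 6521, 3029 and 1603 TPM, and Krt17 at 3506, 3602 and 2091 TPM and then at 2516, 1001 and 870 TPM. The days overlapped for all 3, since the first day 6 library exceeded the third day 3 library. Their differences were -1.55, -1.32 and -1.2, and without the second day 6 library the unadjusted p values were 0.0893, 0.10 and 0.0948, so that none passed. Krt16 differed by -0.79. The sham group had differences of -1.42 for Krt6b, -1.23 for Krt6a and -0.71 for Krt17, and the test of the courses found 0 of the 4 past the threshold. Of 12 kallikreins and their inhibitors, 2 fell, Klk6 by 1.23 and Klk10 by 1.18, both serine proteases of the epidermis, and the count ranged from 0 to 5 when a library was left out.

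Most genes of muscle regeneration fell in both groups. Under CAP 8 of 12 were lower at day 6 and 0 higher (4 lower without the second day 6 library), with a median of -1.98. Myog, the transcription factor of differentiating myoblasts, was at 36.4, 12.8 and 6.10 TPM at day 3 and at 0.781, 1.82 and 4.22 TPM at day 6. Every day 6 library lay below every day 3 library, and the difference was -2.88 (SE 0.78, unadjusted p = 0.0079). Myod1, the myoblast determination factor, fell by 2.48, and the myoblast fusion genes Mymk and Mymx by 2.72 and 2.89. Cdh15, the M-cadherin of satellite cells, fell by 1.93, and Pax7 and Myf5, further satellite cell genes, had differences of -1.38 and -1.24 that did not pass. The first day 3 library was highest, with 126.8 TPM summed over the list against 39.0 and 22.2 TPM in the other two, and without a library the count of lower genes ranged from 4 to 11. Under the gel alone 11 of 12 fell, with a median of -2.21, Myog by 3.06, and 0 of 12 differed between the courses at the threshold. Of 20 genes of mature muscle 2 fell (1 without the second day 6 library), among them Myh2, a fast myosin, from 209, 188 and 69.8 TPM to 46.3, 42.7 and 52.9 TPM.

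Of 16 tested genes of T and NK cells, 6 rose and 0 fell, with a median of 0.86, and between 4 and 7 were higher when a library was left out (5 without the second day 6 library, when Trac no longer passed). Cd4, a coreceptor of helper T cells that is also found on some myeloid cells, was at 11.7, 4.57 and 5.61 TPM at day 3 and at 33.8, 24.5 and 32.9 TPM at day 6. It rose by 2.15 (SE 0.35, unadjusted p = 0.0005), and in the sham group by 2.31, with a course difference of -0.17. Nkg7, a granule protein of cytotoxic cells, was at 3.01, 3.71 and 2.84 TPM and then at 9.91, 9.04 and 5.66 TPM, and rose by 1.31. The days were apart for both genes. Gzma (granzyme A) rose by 1.37, the NK receptor Ncr1 by 1.05, the T cell receptor constant gene Trac by 1.06 and the costimulatory receptor Cd27 by 1.39, all from under 3 TPM at day 3. The CD3 chains were 0.41 for Cd3d, 0.92 for Cd3e and 0.99 for Cd3g, short of 2-fold. In sham wounds the differences of Nkg7, Gzma, Ncr1 and Trac were -0.06, -0.41, -0.42 and -0.22, and 5 of the 16 genes were more positive under CAP at the threshold, Nkg7 by 1.37 (unadjusted p = 0.00343, adjusted p = 0.428). Of 9 genes of MHC class II presentation 0 passed in limma and 5 had an unadjusted p under 0.05, with a median of 0.53, and Cd74, the invariant chain, was at 657, 368 and 423 TPM and then at 982, 704 and 786 TPM.

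**Figure D4:**
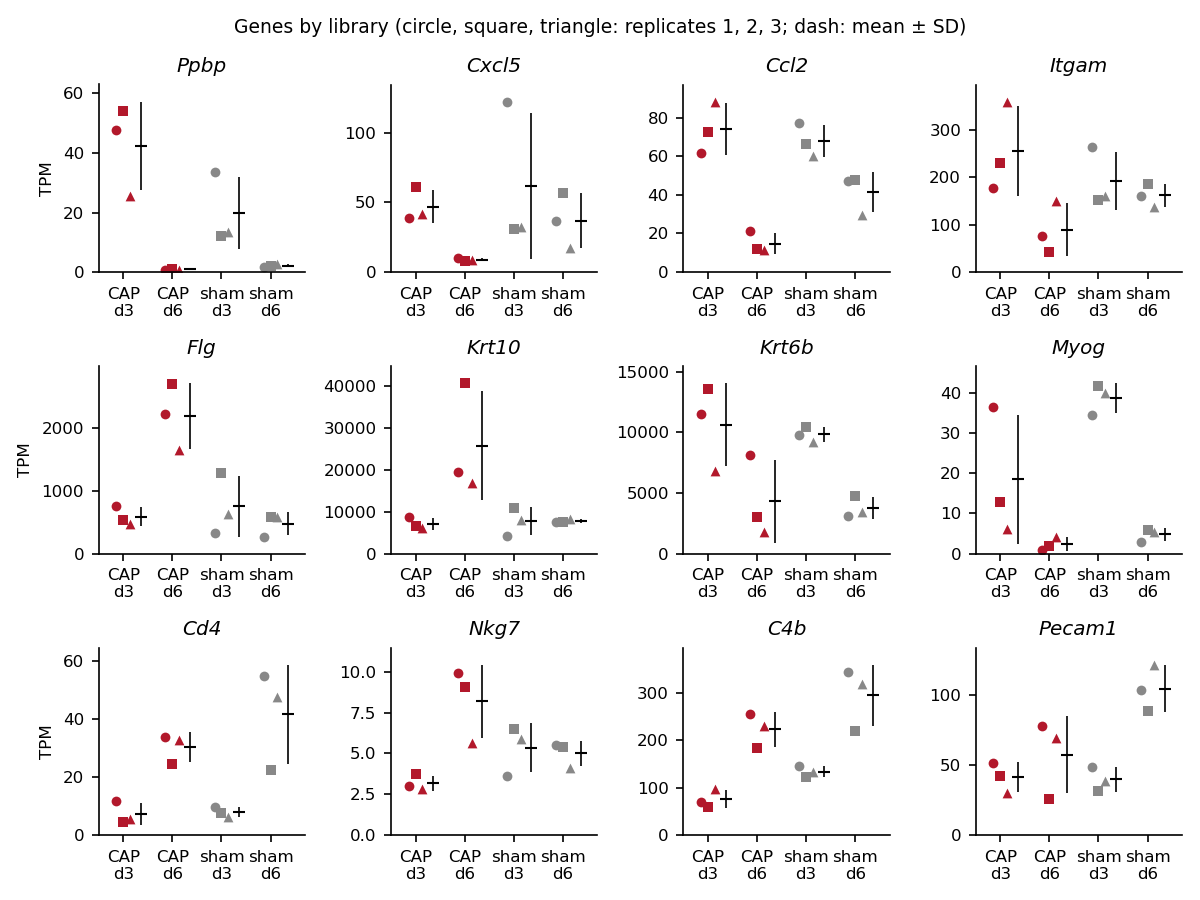
Levels of 12 genes (TPM, linear axes from 0) in each library, with CAP in red, sham in gray, circles, squares and triangles for replicates 1, 2 and 3, and the mean ± SD (n = 3) beside them. Ppbp, Cxcl5 and Ccl2 have their lowest group mean at day 6 under CAP, Flg and Krt10 stand above all other groups there, and Myog is low at day 6 in both groups.

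Most fibroblast, collagen and complement genes had positive differences of less than 2-fold. Of 14 tested dermal fibroblast genes 1 rose, Pi16, a gene of adventitial fibroblasts, from 146, 93.3 and 126.8 TPM to 292, 343 and 226 TPM. The matrix proteoglycan Lum differed by 0.88 (unadjusted p = 0.00252) and Dpt by 0.74 (unadjusted p = 0.0141). Of 19 tested collagens 17 had positive differences and 0 passed in limma, with a median of 0.31 and 2 with an unadjusted p under 0.05, and without the second day 6 library 2 passed (Col12a1 and Col15a1). Col1a1 was at 3250, 2704 and 4403 TPM at day 3 and at 4259, 3920 and 5832 TPM at day 6, and Col3a1 at 5314, 4709 and 7086 TPM and then at 7611, 7166 and 9804 TPM. The ranges overlapped for Col1a1 and not for Col3a1. Col14a1, a collagen that binds to fibrils, differed by 0.96 (unadjusted p = 0.00143). Among 22 matricellular and crosslinking genes Eln (elastin) rose by 1.09, and Thbs1 (thrombospondin 1), a platelet and stromal glycoprotein, fell by 1.24. Both were less than 2-fold without the second day 6 library, at 0.60 and -0.74.

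Of 14 complement genes 1 rose and 1 fell, with a median of 0.52. C4b, the fourth component, was at 70.6, 60.0 and 97.4 TPM at day 3 and at 255, 184 and 230 TPM at day 6, and rose by 1.57 (SE 0.21, adjusted p = 0.144). C3 differed by 0.91, C1s1 by 0.84, Serping1 (the C1 inhibitor) by 0.79 and C1ra by 0.56, each with an unadjusted p under 0.01 and under 2-fold. C5ar1, the receptor of C5a on myeloid cells, fell by 1.01. Without the second day 6 library C5ar1 came to -0.82 and no longer passed, and C3 came to 1.1, so that 2 complement genes rose and 0 fell. C5ar1 also missed 2-fold when 1 TPM was the pseudocount and under median-ratio scaling and quantile normalization. In the sham group C4b rose by 1.11, and 0 of 14 complement genes differed between the courses.

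Endothelial and vessel wall genes did not pass under CAP. Of 20 tested endothelial genes all 20 had positive differences, with a median of 0.36, 0 passed in limma and 1 had an unadjusted p under 0.05, while in the sham group 15 of 20 rose, with a median of 1.32. Pecam1 (CD31) was at 51.7, 42.1 and 30.3 TPM at day 3 and at 77.4, 25.7 and 68.9 TPM at day 6 under CAP. The second day 6 library held less than any day 3 library and the other two held more. Its difference was 0.35 with all libraries and 0.85 (unadjusted p = 0.0114) without the second, when the median of the list was 0.83 and 3 genes passed. The difference between the courses of Pecam1 was -1.05 (unadjusted p = 0.0652), and 3 of 20 endothelial genes were more negative under CAP. Tek, the angiopoietin receptor, differed by 0.85 under CAP (unadjusted p = 0.00115) and by 0.44 in the sham group. Of 12 genes of smooth muscle, pericytes and myofibroblasts 0 passed under CAP in limma (1 had an unadjusted p under 0.05, and 4 passed without the second day 6 library) and 9 rose in the sham group. Tagln (SM22) was at 17.7, 20.1 and 17.8 TPM and then at 38.2, 14.6 and 30.3 TPM.

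Erythroid genes differed between CAP and sham in their course at the 2-fold threshold. Hba-a1, an alpha globin, was at 700, 781 and 862 TPM at day 3 and at 392, 220 and 977 TPM at day 6 under CAP, which did not pass (difference -0.83). Under the gel alone it differed by 2.39, and the courses differed by -3.22 (unadjusted p = 0.000554, adjusted p = 0.428). Hba-a2 and Hbb-bs differed between the courses by -3.24 and -3.20, and 6 of 9 erythroid genes were more negative under CAP. Summed over the erythroid list, sham libraries held 754, 553 and 515 TPM at day 3 and 2528, 2114 and 5624 TPM at day 6. CAP libraries held 2358, 2567 and 2804 TPM and then 1288.5, 717 and 3186 TPM. All CAP libraries of day 3 thus lay above all sham libraries of day 3, and the groups overlapped at day 6. Hba-a1 and Hba-a2 are near-identical copies. Slc4a1, the red cell anion exchanger, was at 0.556 TPM or less in all 6 CAP libraries. How much blood each wound sample held was not measured.

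Interferon response genes were lower in 2 of 30 cases under CAP, with a median of -0.40, and in 17 of 30 in the sham group, with a median of -1.13. Summed over the list, sham libraries held 1217, 1100 and 1196 TPM at day 3 and 650, 538 and 475 TPM at day 6. CAP libraries held 747, 331 and 446 TPM and then 504, 307 and 316 TPM. They thus lay below all sham libraries at day 3, and the groups overlapped at day 6. Oasl1 and Rsad2, antiviral effector genes, fell by 1.19 and 1.06, and without the second day 6 library only Oasl1 passed. Ifit1 was at 22, 6.80 and 7.87 TPM at day 3 and at 9.48, 7.83 and 2.88 TPM at day 6, and did not pass. In the test of the courses 1 of 30 was more positive and 0 more negative under CAP. Of 29 cell cycle genes 0 passed in limma and 3 had an unadjusted p under 0.05, with a range from -0.48 to 0.14.

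**Figure D5:**
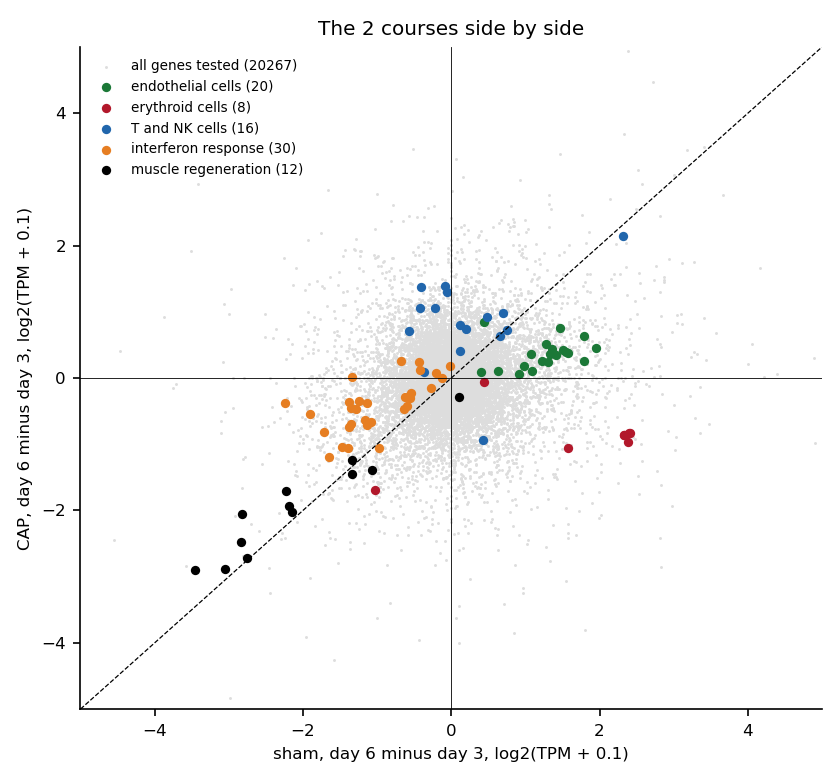
Each point is a gene, with the day 6 minus day 3 difference in the sham group on the horizontal axis and under CAP on the vertical axis (log2 scale), gray for all 20267 genes tested and colored for 5 lists, and the dashed line marks equal differences. Muscle regeneration genes lie near the line, endothelial genes except Tek lie right of it, all at 0 to 0.85 on the CAP axis, and most erythroid genes lie at the lower right. In all, 5 genes fall outside the plotted range of -5 to 5.

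The genes of smallest p among those that fell also included Ndufa12, Cox17, Fabp3, Il1rl1 and Gml. Ndufa12, a subunit of respiratory complex I, was at 73.5, 68.9 and 76.9 TPM at day 3 and at 30.8, 34.9 and 27.7 TPM at day 6, and fell by 1.23 (SE 0.12, adjusted p = 0.0564). Cox17, a copper chaperone of complex IV, fell by 1.06 (adjusted p = 0.101), and Fabp3, a fatty acid binding protein of muscle, by 1.2 (adjusted p = 0.0925). Il1rl1, the receptor of IL-33, went from 27.6, 21.3 and 28.9 TPM to 7.74, 7.80 and 12.4 TPM, a difference of -1.49. The days were fully apart for Ndufa12 and Il1rl1, which was again a condition of their choice. Gml, a GPI-anchored protein, fell by 2.34, and Pyy, a gut peptide hormone, from 8.72, 5.99 and 20.3 TPM to 1.43 and 0.938 TPM in 2 libraries and 0 in the other. Arntl, the clock transcription factor BMAL1, was among those that rose, from 12.5, 12.2 and 12.1 TPM to 27.0, 27.4 and 22.8 TPM, by 1.06 (SE 0.12, adjusted p = 0.0925). The sources used here give no hour of day for the harvest of the wounds.

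Mup18, a major urinary protein gene, was listed at 0 in all 3 CAP libraries of day 3 and was at 34.6, 24.7 and 21.2 TPM at day 6 (adjusted p = 0.00028, 0.000294 to 0.12 over the alternatives). In sham wounds it was listed at 0 in 1 library at each day and at up to 25.0 TPM in the others. The family consists of near-identical copies, between which reads can be split in different ways, and Mup11, also of large difference, was at 24.2 TPM in 1 day 3 library and at 0 in the other two. Summed over its 22 identifiers, the Mup family was at 20.4, 66.2 and 45.8 TPM at day 3 and at 188, 126 and 105 TPM at day 6, which gave 1.77 and p = 0.1 in an exact 2-sided permutation test, the smallest p that 3 against 3 libraries allow. The sham sums differed by 0.13 (exact permutation p = 0.8). The Ccl27 family of skin chemokines, likewise of near-identical copies and chosen after its values were seen, was at 263, 258 and 178 TPM summed over 5 identifiers and then at 70.8, 60.3 and 105 TPM, a difference of -1.58 (exact permutation p = 0.1) beside -0.64 (exact permutation p = 0.4) in the sham group.

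Trpv1, the receptor of CAP, was under the filter of 0.3 TPM at both days and was not tested. It was at 0.0463 and 0.195 TPM in 2 libraries of day 3 and listed at 0 in the other, and at 0.151, 0.0322 and 0.147 TPM at day 6. The cell bodies of sensory neurons lie outside the skin, and the paper also cites TRPV1 expression in fibroblasts and keratinocytes. Why the Trpv1 level was low was not tested. Igf2, a growth factor, was at 11.6, 4.67 and 2.49 TPM and then at 3.67, 3.52 and 4.50 TPM, with the day 6 values inside the range of day 3.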

How the data were processed

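RNA of skin wounds (Trizol extraction, SureSelect XT HS2 mRNA libraries) was sequenced by the authors. Per the labels, reads were converted with bcl2fastq and trimmed with Trimmomatic 0.36, with mm10 as genome build. Expression was estimated by the authors with StringTie, and 1 table per library was deposited with TPM for 55487 genes. TPM is transcripts scaled to a fixed sum after correction for gene length. The coordinates of 54863 genes are those of GENCODE M21 on GRCm38. Column sums run from 1000003.08 to 1000003.23, with 0.0001 in place of 0. The tables hold 0 other columns of per-sample values. TPM carries no depth, so the depth is unknown and the precision rests on 3 libraries per group.

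Values were transformed as log2(TPM + 0.1), with genes of mean 0.3 TPM or more in at least 1 group compared, and fitted with limma 3.58.1 in R 4.3.3 (intensity trend, not robust), with Benjamini-Hochberg adjustment over all genes. Standard errors (SE) are those of the fit. Genes were called at adjusted p under 0.05 and 2-fold, and, since fewer than 100 passed, also at an unadjusted p under 0.05 and 2-fold. The difference between the courses under CAP and sham was fitted on all 12 libraries. Python 3.11.15, numpy 2.4.6, pandas 2.3.3 and matplotlib 3.10.9 made lists, sums and figures. The fit was also run on simulated data, with genes drawn independently and 200 of them changed by a known amount. The share recovered is not given here, and no accuracy is claimed from it.

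Genes named were, per direction, the 10 of smallest p and the 5 of largest difference among called protein-coding genes whose days do not overlap, the 5 most abundant at each day, leading and example members of 44 gene lists, the 5 of smallest p per direction in the comparison of the courses, and Il6, Cxcl10, Tnf, Pecam1, Trpv1, Arg1, Igf2, Gpnmb, Slc4a1 and Ccr2. Gp1bb, the epidermal differentiation complex and the Mup and Ccl27 sums were chosen after their values were seen. The members and lists were chosen with earlier results of these data known. Lists not given in the text had at most 3 called genes. Alternatives were pseudocounts of 1 and 0.01 TPM, no filter, a filter in all groups compared, median-ratio and quantile scaling, a replicate block, a joint fit and leaving out each library.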

Additional observations from a re-analysis of the deposited data

Results flagged for a closer look

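Of 46 named genes that were checked, 22 had a course from day 3 to day 6 that differed between CAP and sham at an unadjusted p under 0.05 and at least 2-fold in limma, 11 in each direction. Their adjusted p values lay between 0.33 and 0.431, so none held after adjustment over all genes, and the genes that had been named for their CAP course or their course difference are not independent of this test. A further 5 genes passed with a group at 0 in every library and are not given. Over all 20267 genes tested, 2.18% were more positive and 2.73% more negative under CAP at this threshold. Because of how the named genes were picked, their count cannot be set against these shares. Groups of 3 libraries were not searched for single libraries far from the others.

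The difference between the courses (CAP minus sham, log2 scale) was more positive under CAP for several epidermal genes that had been named because they rose under CAP. It was 2.42 for Flg, 3.97 for Mt4, 2.14 for Serpinb12, 1.52 for Slurp2, 1.38 for Krt15 and 1.48 for Lgr6. It was 1.57 for Scgb1b27 and 1.04 for Sult1a1, and 5.71 for Mup11, which was listed at 0 in 2 libraries. The genes named by the smallest p of this test, Gm4811 (1.87) and Dbil5 (2.81), complete this direction. Epidermal genes did not all go this way. In the epidermal differentiation complex the median course difference was 1.24 for the Lce1 and Lce6 families, -0.95 for Sprr and -0.96 for Lce3.

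The difference between the courses was more negative under CAP for the chemokines Ppbp (-2.34), Cxcl5 (-1.79), Pf4 (-1.35) and Ccl2 (-1.64). It was also more negative for the macrophage genes Arg1 (-3.14) and Gpnmb (-2.85), for Slc4a1 (-2.63) of red cells and for Sprr3 (-1.84). At day 3 the CAP mean of Arg1, Gpnmb and Slc4a1 was already above the sham mean. Named by the smallest p of this test were Pigbos1 (-1.31), Ddit4 (-1.08), a gene induced by stress and glucocorticoids, and Mir7027 (-3.92). Ddit4 was at 65.7, 90.7 and 78.1 TPM at day 3 and at 57.7, 53.9 and 67.0 TPM at day 6 under CAP, and at 58.6 to 68.5 TPM and then at 98.9 to 104 TPM in the sham group, so that the sham libraries of day 6 lay above all others.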

How the results depend on the processing

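At the adjusted threshold 1 gene was higher and 1 lower. The count of higher genes was 0 with a filter of 0.3 TPM at both days, 2 with a replicate block and 5 in a joint fit of all 12 libraries, 345 at the threshold of the study, and from 1 to 2 when a library was left out. The count of lower genes was 7 in the joint fit, 397 at the threshold of the study and from 0 to 4 when a library was left out. For the courses, 0 genes were more positive under CAP, against 1 with a pseudocount of 0.01 TPM, 4 without a filter, 441 at the threshold of the study and 0 to 1 with a library left out. For more negative genes it was 0, against 2 without a filter, 553 at the threshold of the study and 0 to 1 with a library left out.

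At the 2-fold threshold, a pseudocount of 1 TPM left 158 genes higher and 175 lower, and a filter at both days 231 and 276. The share of higher genes among those called was 46.5% with all libraries, and median-ratio scaling gave 386 higher against 356 lower and quantile normalization 387 against 355. Without the third day 6 library 471 were higher and 708 lower. Of 79 genes named in the text that passed, 53 still passed without the second day 6 library and 26 did not, and 0 changed direction under any alternative. These genes were counted because they had passed, many with days that do not overlap. A change of direction was therefore unlikely from the outset. The deviations of same-numbered libraries of day 3 and day 6 correlated at r = 0.02, -0.03 and 0.18, and those of differently numbered ones at -0.17 to 0.15. With 3 libraries per day these values cannot decide whether the numbers pair the libraries. With the replicate block 341 genes were higher and 417 lower. In that limma fit 3418 genes had an unadjusted p under 0.05, against 2351 without the block.

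Genes that had not passed changed sign when a library was left out. Cxcl1 ranged from -0.78 to 0.037, Cxcl2 from -1.18 to 0.77, Il6 from -0.53 to 0.31, Tnf from -0.72 to 0.57, Ccr2 from -0.57 to 0.16, Igf2 from -0.91 to 0.18 and Apoe from -0.053 to 0.47. Tnf came to 0.016 with a pseudocount of 1 TPM and to 0.0079 with quantile normalization, and Eef1a1 to -0.022 with quantile normalization. The cause was not tested. Sums of the Mup family ranged from 1.30 to 2.14 and of the Ccl27 family from -1.81 to -1.41 with a library left out. The depth is unknown, low genes carry a counting error that could not be given, and TPM is a share, so a large rise of Krt10 and Krt1 lowers the share left to all other genes.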

Other observations

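Of 18 tested genes of glycolysis and hypoxia, 17 had negative differences between day 3 and day 6 under CAP, 0 passed in limma and 6 had an unadjusted p under 0.05. The median was -0.45, -0.22 without the second day 6 library, and -0.03 in the sham group. Ldha, lactate dehydrogenase A, was at 992, 1121.9 and 1151 TPM at day 3 and at 788, 688 and 770 TPM at day 6, a difference of -0.54 (unadjusted p = 0.00474). Eno1 differed by -0.51, Pgk1 by -0.63 and Pgam1 by -0.69, all enzymes of the same pathway. The days did not overlap for Ldha.

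Of the clock genes, Arntl was the 1 of 13 that passed. Cry1, a repressor of the clock, was at 10.9, 10.1 and 10.7 TPM at day 3 and at 7.29, 7.77 and 6.79 TPM at day 6 (difference -0.54, unadjusted p = 0.00394), and Per2, another repressor, differed by -0.93 (unadjusted p = 0.0237) under CAP and by -0.96 in the sham group. Arntl differed by 0.62 in the sham group, and the difference between its courses was 0.43 (unadjusted p = 0.0141).

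Of 18 immediate early genes 2 rose, Nr4a1, an orphan nuclear receptor, from 15.1, 12 and 24.1 TPM to 32.2, 31.6 and 43.5 TPM, and Fosb by 1.28 (not past the threshold without the second day 6 library). Of 10 genes of the EGF receptor family and its ligands 1 rose, Ereg (epiregulin), from 31.5, 20 and 21 TPM to 48.5, 133 and 59.4 TPM. Nrg1 (neuregulin 1) differed by -0.84 (unadjusted p = 0.00333), from 11.2, 12.6 and 9.22 TPM to 6.70, 6.72 and 4.93 TPM. Of 9 sebaceous gland genes 2 rose and 1 fell, Cidea, a lipid droplet protein, by 1.54.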
